A study of Mus musculus with 19 samples.

Results

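The genes examined were the nuclear genes of respiratory complex I, taken as every probe whose annotated symbol began with *Ndufa*, *Ndufb*, *Ndufc*, *Ndufs*, *Ndufv* or *Ndufab*, with the assembly factors (*Ndufaf*) left out. The rule found 34 probes of 29 genes among the 24048 probes of the Illumina MouseRef-8 array, of which 19398 carried a gene symbol. A further 5 probes of 4 genes (*Ndufs3*, *Ndufs5*, *Ndufa11* and *Ndufb10*) carried a complex I name only in the study's own lists of changed genes. Those lists were drawn up on arrays of this study, so these probes were kept out of every count of complex I probes or genes and are described apart. Their *Ndufs5* probe had a number in its identifier that RefSeq gives to a pseudogene of *Ndufs5*, so that its name is uncertain.

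The livers, spleens and hearts came from male BALB/c mice aged 12 weeks that had all been given an atherogenic diet for 6 weeks. Mice of the control group drank distilled water (AD + DW) and those of the treatment group drank oil palm phenolics (AD + OPP), a water-soluble extract of the oil palm fruit, at 1500 ppm gallic acid equivalents. There were 4 AD + DW livers and 3 arrays in each of the other groups, 19 arrays in all. Every mouse received the diet, BALB/c mice are a limited model of atherosclerosis by the study's own account, and mice of a cage shared the drink, so that an effect of the cage cannot be told apart from that of OPP.

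Complex I (NADH:ubiquinone oxidoreductase) is the entry point of the mitochondrial respiratory chain. It takes electrons from NADH, hands them through a flavin and a chain of iron-sulfur clusters to ubiquinone, and pumps protons across the inner mitochondrial membrane. The enzyme is L-shaped. Its matrix arm holds the catalytic subunits of electron transfer, among them *Ndufv1*, *Ndufv2*, *Ndufs1*, *Ndufs3*, *Ndufs7* and *Ndufs8*, and accessory subunits, and its membrane arm holds the proton pumps encoded by mitochondrial DNA with many small accessory subunits around them. Heart muscle, which depends on oxidative metabolism, is rich in mitochondria. *Ndufa4*, named as a complex I subunit, is now regarded as part of cytochrome c oxidase, and was kept because the rule includes it. None of the subunits encoded by mitochondrial DNA had a probe.

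Of the 34 probes, 27 were detected (detection p under 0.01) on each of the 19 arrays and 3 on none of them. The 3 were the probe of *Ndufab1*, the mitochondrial acyl carrier protein, the probe of *Ndufs1*, the largest catalytic subunit, and the second of 2 probes of *Ndufc1*. The other *Ndufc1* probe was detected on every array. *Ndufv3*, an accessory subunit at the tip of the matrix arm, showed the same division, since one probe was detected on every array and the other on 2 of 7 liver, 1 of 6 spleen and 0 of 6 heart arrays. The membrane arm subunits *Ndufb2*, *Ndufb7* and *Ndufb11* were detected on all 6 heart arrays. In the spleen *Ndufb2* was detected on 3 of 6 arrays and *Ndufb7* and *Ndufb11* on none, and in the liver *Ndufb11* was detected on 2 of 7.

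The tissues carried the markers of their labels. The 4 cardiomyocyte genes with a probe were detected on every heart array, and 3 of them (*Myh6*, *Myl2* and *Tnnt2*) on no liver array. The 4 hepatocyte genes were detected on every liver array. In the spleens *Alb*, *Apoa1* and *Ttr* were detected on no array, and 1 of the 4 on every array. In the hearts *Alb* was detected on no array, and again 1 of the 4 on every array. On the third AD + DW heart 3 of the 4 were detected. Its mean log2 signal of the list was 7.35, beside 4.82 to 5.52 in the other hearts. Of 3 B cell genes with a probe, 2 were detected on every spleen array and none on any liver or heart array. The number of detected probes ran from 5863, in an AD + DW spleen, to 7576.

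How the subunits were distributed over the organs was asked first. All 30 complex I probes that could be tested were higher in the heart than in the liver and than in the spleen, with an adjusted p under 0.05 for each (limma). A probe was tested if detected on every array of at least 1 of the 6 groups, and *Ndufb11* entered through the hearts alone. The dimmer *Ndufv3* probe, at a mean of 69.3 in the liver and 44.5 in the heart, was left out. Without this filter 1 gene was lower in the heart than in the liver, and 1 lower than in the spleen. With each gene counted by its brightest probe, this was *Ndufab1* in both comparisons, whose probe was detected on no array. The median log2 difference over 27 genes was 1.89 between heart and liver, beside 0.13 over all 8989 probes tested, and 2.43 between heart and spleen, beside 0.0. Of all probes, 41.2% were called higher in the heart than in the liver and 38.2% higher than in the spleen. The liver in turn was higher than the spleen for 28 of the 30 probes, with a median of 0.77 beside -0.12 over all probes and 35.8% of all probes called in that direction. Of all probes called between heart and liver, 57.9% were higher in the heart, and 43.7% with the authors' normalization within each organ, under which the 30 complex I probes were still all called and the median of the genes was 1.26. These values are signals with the array's background removed and quantile normalized over the 19 arrays. They compare the amount of a transcript in the RNA of whole organs, in which fewer cells of a type and less RNA per cell cannot be told apart.

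**Figure D1:**
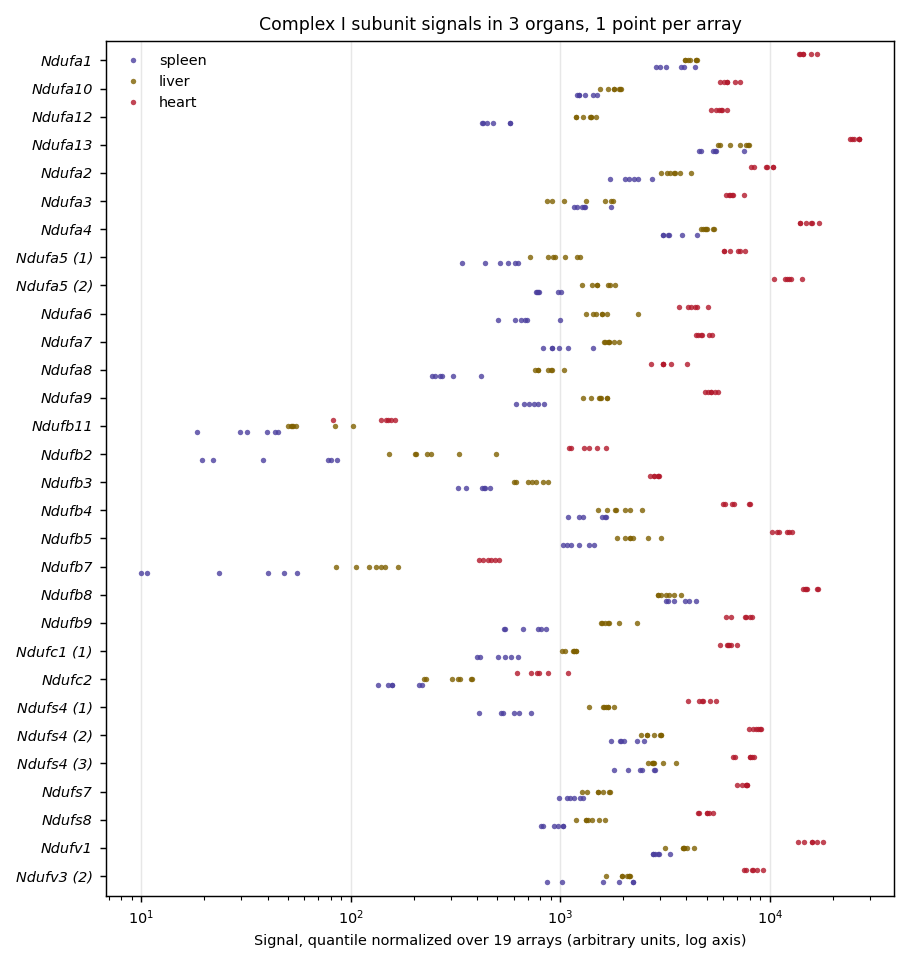
Signal of each tested complex I probe (rows) on each of 19 arrays (points), quantile normalized, on a log axis in arbitrary units, coloured by organ, where a number in brackets tells apart probes of the same gene. Hearts lie to the right in every row, and the 6 heart arrays overlap the liver arrays only for *Ndufb11*.

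Among the catalytic subunits, *Ndufv1*, which binds NADH and the flavin, had signals from 13598 to 17967 (median 15966) on the heart arrays. Its liver arrays ran from 3163 to 4351 (median 3882) and its spleen arrays from 2767 to 3350 (median 2876). The hearts stood clear of both other organs, while livers and spleens overlapped. The log2 difference of *Ndufv1* was 2.04 ± 0.10 (SE; adjusted p = 9.54e-12, limma) between heart and liver and 0.39 ± 0.10 between liver and spleen (adjusted p = 0.00163). *Ndufs7*, which helps form the ubiquinone site, gave 2.31 ± 0.09 and 2.73 ± 0.10 for heart over liver and over spleen. *Ndufs8*, an iron-sulfur subunit, gave 1.83 ± 0.10 and 2.41 ± 0.10. These catalytic subunits lay on both sides of the median of the family.

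The matrix arm accessory subunit *Ndufa5* had the largest difference between heart and liver. Its brighter probe ran from 10417 to 14189 (median 12228) in the heart, from 1263 to 1821 (median 1495) in the liver and from 768 to 1006 (median 785) in the spleen. The organs did not overlap, and the heart was 7.92-fold above the liver and 14.5-fold above the spleen (log2 2.99 ± 0.11 and 3.86 ± 0.11, adjusted p = 1.84e-13 and 1.71e-14). The other *Ndufa5* probe gave 2.81 ± 0.14 and 3.73 ± 0.15. *Ndufc1*, a small membrane arm subunit, followed with 2.50 ± 0.11 over the liver and 3.66 ± 0.12 over the spleen.

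*Ndufb2*, also of the membrane arm, had the largest difference between heart and spleen. The heart arrays read 1104, 1124, 1291, 1365, 1502 and 1657. The liver arrays spread from 151 to 495 (median 232), and the spleen arrays from 19.5 to 86.2 (median 57.9). No organ overlapped another, and the spread among livers and spleens was wide relative to their level. The log2 difference was 4.87 ± 0.32 between heart and spleen (adjusted p = 7.91e-10), with the spleen near the limit of detection, and 2.47 ± 0.31 between heart and liver.

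*Ndufb7*, a membrane arm subunit of the intermembrane space side, was not detected in any spleen, so only a bound can be given there. The heart was at least 6.91-fold and the liver at least 1.90-fold above the lowest signal detected in the spleens. For *Ndufb11* the bound of heart over spleen was at least 2.06-fold. *Ndufb11* was also the probe with the smallest difference between heart and liver, 1.15 ± 0.21, and one AD + OPP heart, at 82, lay within the range of the livers, from 50.1 to 102.

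At the lower end stood *Ndufa2*, with 1.42 ± 0.11 between heart and liver, and *Ndufs4*, an accessory subunit of the NADH-oxidising end of the matrix arm whose loss causes Leigh syndrome in human. The 3 probes of *Ndufs4* did not give the same size. Between heart and spleen they gave log2 differences of 3.09 ± 0.12, 2.06 ± 0.10 and 1.70 ± 0.12, and between liver and spleen 1.52 ± 0.12, 0.41 ± 0.09 and 0.28 ± 0.12. The direction was the same for all 3 in each contrast, while the first probe, with spleen signals from 411 to 722, gave by far the larger differences against the spleen. Between heart and liver the probes gave 1.57 ± 0.12, 1.65 ± 0.09 and 1.42 ± 0.12 in the same order.

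Between liver and spleen the exceptions were *Ndufa3* (-0.07 ± 0.18, adjusted p = 0.741) and *Ndufb8* (-0.21 ± 0.10, adjusted p = 0.0639), both accessory subunits of the membrane arm. *Ndufb8* read from 2939.9 to 3787 in the liver and from 3190.0 to 4452 in the spleen, and the organs overlapped. With each array scaled to its median instead, the liver was higher for both, by 0.33 for *Ndufa3* and 0.50 for *Ndufb8*, so their order depends on the scaling. Among the probes detected on at least 1 spleen array, the largest differences between liver and spleen were those of *Ndufb2* (2.40 ± 0.31), *Ndufa8*, a membrane arm subunit (1.58 ± 0.13), and the first *Ndufs4* probe, and the smallest among those called were those of *Ndufa1* (0.27 ± 0.10) and the third *Ndufs4* probe.

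All heart arrays lay above all liver arrays for 29 of the 30 probes, where 32.4% of all probes did so, and above all spleen arrays for 30, where 30.5% did. All liver arrays lay above all spleen arrays for 20 of 30, beside 26.2%. The members also differed less among themselves than probes in general. The SD of the log2 difference between heart and liver was 0.41 over the 27 genes and 2.40 over all probes. Over the 15 genes of the membrane arm the median between heart and liver was 1.90, and over 8 matrix arm accessory genes 1.64.

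Brown fat markers, which can accompany a dissected heart and stem from another tissue rich in mitochondria, were present in the hearts. Of 4 such genes with a probe, 2 were detected on every heart array and *Plin1* on none. Their mean log2 signal ranged from 5.26 to 8.03 in AD + DW hearts and from 6.51 to 7.54 in AD + OPP hearts. The cardiomyocyte list was at 14.80 to 15.19. The part of brown fat in the heart signals was not tested.

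The probes that only the lists of changed genes named were also higher in the heart than in the liver. Heart over liver was 1.68 for the brighter *Ndufs3* probe, 2.44 for *Ndufa11*, 2.30 for *Ndufb10* and 2.06 for *Ndufs5*. *Ndufs3* is a catalytic subunit of the matrix arm.

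Other mitochondrial genes were compared with the same fit. Of 38 tested genes of complexes II to V, 36 were called higher in the heart than in the liver and 2 lower, with a median of 1.86. Those lower were *Cox6a1* (-1.18 ± 0.12 for its brighter probe) and *Cox8a* (-0.26 ± 0.10), cytochrome c oxidase subunits that have counterparts in muscle (*Cox6a2* and *Cox8b*). No probe of complex I that passed the detection filter was lower in the heart. The tricarboxylic acid cycle had 8 of 10 genes called higher and 1 lower, with citrate synthase (*Cs*) at 4.07 ± 0.13. Complex I assembly factors, which build the enzyme without staying in it, had a median of 0.80 over 12 genes, 11 of them called higher. Among these *Tmem186*, *Foxred1* and *Ndufaf7* also entered through the hearts alone. Among regulators of mitochondrial genes the results were mixed. *Esrra* (2.32 ± 0.14), *Ppargc1a* (1.65 ± 0.41) and *Ppargc1b* (2.39 ± 0.31) were higher in the heart than in the liver, while *Tfam* (-0.31 ± 0.11), *Gabpa* (-0.59 ± 0.22) and *Tfb1m* (-0.33 ± 0.12) were lower. *Nrf1*, whose product binds the NRF1 motif, gave -0.28 ± 0.16 between heart and liver (adjusted p = 0.121, limma) and was lower in the heart than in the spleen (-2.97 ± 0.16, adjusted p = 5.98e-11). *Ppara* was detected on 6 of 7 liver arrays and on 0 heart arrays.

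Because the tested genes were all higher in the heart, their promoters were searched for motifs of factors known to act on respiratory genes. The search covered 250 bases before and 50 after the RefSeq start (GRCm38.p6), on both strands. Of 26 complex I genes with a promoter in the table, 4 (*Ndufa5*, *Ndufa6*, *Ndufa8* and *Ndufb4*) held the consensus of NRF1, a factor of nuclear genes for mitochondrial proteins, against 7.17% of 17492 protein-coding genes. The YY1 motif was in 3 (all downstream of the start, in *Ndufa9*, *Ndufs4* and *Ndufs7*) against 1.06%. The CREB motif TGACGTCA was in 2 (*Ndufa10* and *Ndufb2*) against 2.54%, and the ETS motif CCGGAAG in 2 (*Ndufb7* and *Ndufs8*) against 12.95%. The ERR motif TCAAGGTCA was in 0, against 0.38%. None of these motifs contains another, and a match describes letters only.

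Shown are bases upstream of the start of *Ndufa5*, the gene with the largest heart and liver difference, *Ndufa8* and *Ndufb4*, which share its motif, and *Ndufb2*, the gene with the largest heart and spleen difference. All run 5′ to 3′ on the strand of the gene and end at the base before the start. Capitals mark the NRF1 motif or its reverse complement in the first 3 and the CREB motif in the fourth, and the sequences are RefSeq's. They lie at chr6:24527691-24527750 (minus strand), chr2:36049339-36049398 (minus), chr16:37654369-37654568 (minus) and chr6:39592505-39592564 (plus).
Ndufa5: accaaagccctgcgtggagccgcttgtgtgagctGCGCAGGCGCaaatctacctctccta
Ndufa8: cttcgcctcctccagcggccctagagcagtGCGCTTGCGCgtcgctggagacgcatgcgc
Ndufb4: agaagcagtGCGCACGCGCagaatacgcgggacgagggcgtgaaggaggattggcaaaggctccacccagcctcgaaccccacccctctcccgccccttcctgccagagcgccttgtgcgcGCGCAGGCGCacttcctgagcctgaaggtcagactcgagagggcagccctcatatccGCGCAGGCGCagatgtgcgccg
Ndufb2: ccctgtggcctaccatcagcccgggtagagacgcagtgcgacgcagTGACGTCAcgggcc
In the stretches shown the NRF1 motif stood once in *Ndufa5* and *Ndufa8* and 3 times in *Ndufb4*. Heart over liver was 2.99 for *Ndufa5*, 1.89 for *Ndufa8*, 1.87 for *Ndufb4* and 1.43 for *Ndufa6*, which also holds it.

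The second question was whether OPP altered the subunits within an organ, for which the deposited normalized signals were used (in arbitrary units). No complex I probe passed the threshold in any organ, and no probe of the array did (0.0% of the 6007, 6664 and 6580 probes tested in liver, spleen and heart by limma). At an unadjusted p under 0.05 the liver had 237 higher (3.95%) and 258 lower (4.29%) probes, the spleen 539 (8.09%) and 561 (8.42%), and the heart 143 (2.17%) and 96 (1.46%). Complex I had 3 such probes of 29 in the liver, all lower, 1 of 27 in the spleen, which was higher, and 0 of 30 in the heart.

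In the liver, 27 of 29 complex I probes tested were lower under OPP, against 50.7% of all probes. Over 1 probe a gene it was 24 of 26, with a median log2 fold change of -0.13 beside 0.0 over all probes. Quantile normalization left 23 of 26 lower and brought the median to -0.084. The arrays of the control group themselves spread as widely as this. The complex I level of an array, the mean over the 26 genes of the log2 signal less the gene's mean in AD + DW, was 0.11, 0.12, -0.06 and -0.17 in the AD + DW livers. It was -0.14, -0.19 and -0.14 in the AD + OPP livers. The OPP livers were close together at the low end, and 1 control liver lay among them.

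**Figure D2:**
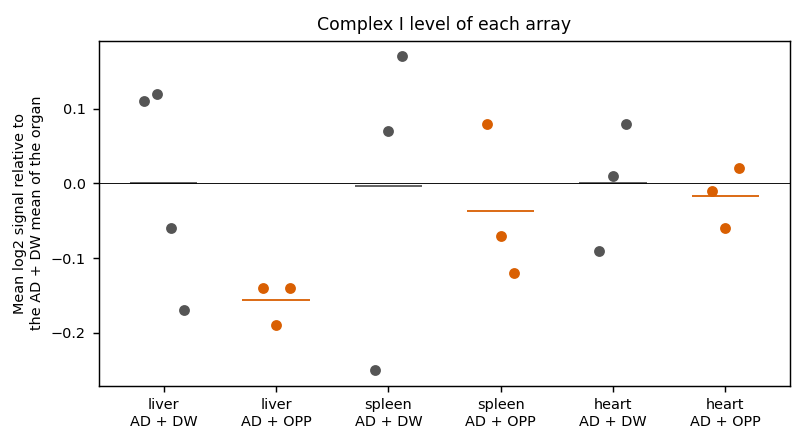
Complex I level of each array (points), as mean log2 signal over 26, 24 and 27 genes in liver, spleen and heart relative to the mean of the AD + DW arrays of the same organ, with a bar at the mean of each group. The 3 AD + OPP livers lie between -0.19 and -0.14 and the AD + DW livers between -0.17 and 0.12, while the groups of the other organs overlap widely.

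The livers also differed in inflammatory transcripts, which followed the treatment only in part. The 2 highest acute phase values were those of AD + OPP livers and the 2 lowest those of AD + DW livers. These transcripts and OPP can therefore not be fully told apart. The mean log2 signal of 5 acute phase genes was 10.28, 10.72, 12.28 and 14.03 in the AD + DW livers, in the order of replicates used above, and 14.33, 14.24 and 11.61 in the AD + OPP livers. That of 6 neutrophil granule genes was 5.94, 5.54, 9.74 and 12.07 against 11.91, 11.69 and 5.69. The 2 control livers with the lowest values had the highest complex I levels, and the control liver with the highest values had the lowest complex I level of its group. The third AD + OPP liver joined low neutrophil granule signals to a low complex I level. The hepatocyte list ranged from 13.95 to 14.13 in AD + DW and from 13.67 to 14.35 in AD + OPP livers. The part of these transcripts in the OPP comparison was not tested.

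*Ndufa5* had the smallest p in the liver. The first of its probes read 1747, 1798, 1510.0 and 1348 in AD + DW and 1289, 983 and 1274 in AD + OPP livers. The groups did not overlap, by a margin of less than the spread within either, and the log2 fold change was -0.44 ± 0.16 (SE, adjusted p = 0.59, limma). The other probe of *Ndufa5* averaged 2427 ± 331 (SD, n = 4) and 2146 ± 279 (SD, n = 3), overlapped between groups and gave -0.18 ± 0.16.

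*Ndufs4* gave a like result in its second probe, with 4579, 5156, 4822 and 4685 in AD + DW and 4260.1, 3698 and 3890 in AD + OPP livers. The groups did not overlap and the log2 fold change was -0.29 ± 0.12 (adjusted p = 0.592, limma). The third probe also did not overlap (-0.22 ± 0.14) and the first did (-0.15 ± 0.12), all 3 being lower under OPP.

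*Ndufc2*, a membrane arm subunit, read 462, 498, 421 and 409 in AD + DW and 442, 286 and 258 in AD + OPP livers. One OPP liver lay among the controls, and the log2 fold change was -0.48 ± 0.20 (adjusted p = 0.592, limma). *Ndufb2* read 624, 420.2, 300.1 and 263 against 274, 189.9 and 271.1, with groups that overlapped and a wide spread among the controls (-0.65 ± 0.30, adjusted p = 0.598). Non-overlap toward lower signals was seen for 3 of 29 probes, and over 1 probe a gene for 1 of 26, where 4.36% of all probes showed it.

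**Figure D3:**
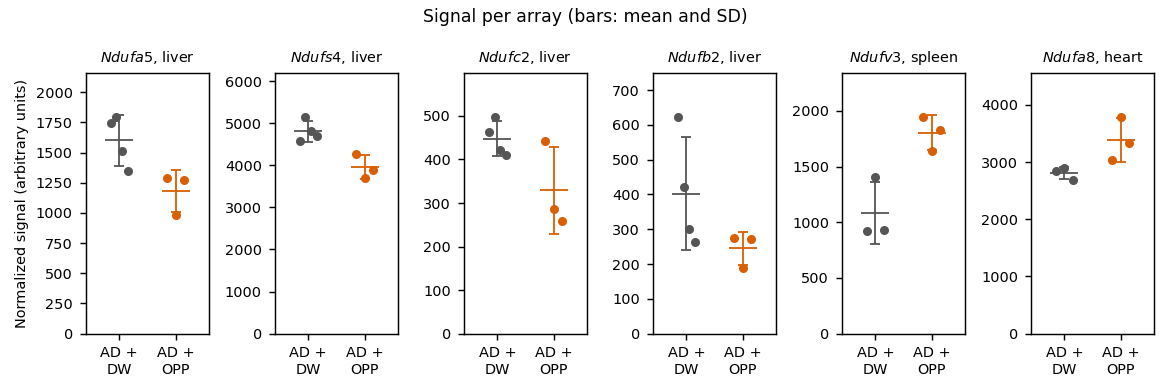
Normalized signal (arbitrary units, axes from 0) of 6 complex I probes on each array (points), with the mean and SD of AD + DW and AD + OPP, in the organ given above each panel. The groups are apart for *Ndufa5* and *Ndufs4* in the liver, *Ndufv3* in the spleen and *Ndufa8* in the heart, and overlap for *Ndufc2* and *Ndufb2* in the liver.

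The only genes above 0 in the liver were *Ndufa2* (0.13 ± 0.13) and *Ndufa8* (0.12 ± 0.15), neither of them apart from the controls. Of the catalytic subunits, *Ndufv1* gave -0.10 ± 0.13, *Ndufs7* -0.02 ± 0.16 and *Ndufs8* -0.08 ± 0.14. Of the membrane arm genes 13 of 14 were lower, with a median of -0.17, and of the matrix arm accessory genes 7 of 8, with a median of -0.13. Of the probes named only by the study's lists, the brighter *Ndufs3* probe gave -0.24 ± 0.12.

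The other respiratory complexes lay in the same direction in the livers. Of 34 genes of complexes II to V, 31 were lower under OPP, with a median of -0.14, and none passed the threshold. The lowest p in this list was that of *Atp5k*, an ATP synthase subunit (-0.70 ± 0.23, adjusted p = 0.59, limma). Tricarboxylic acid cycle genes were lower in 7 of 10 and assembly factors in 7 of 9, and regulators of mitochondrial genes were divided, with 4 of 7 higher.

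**Figure D4:**
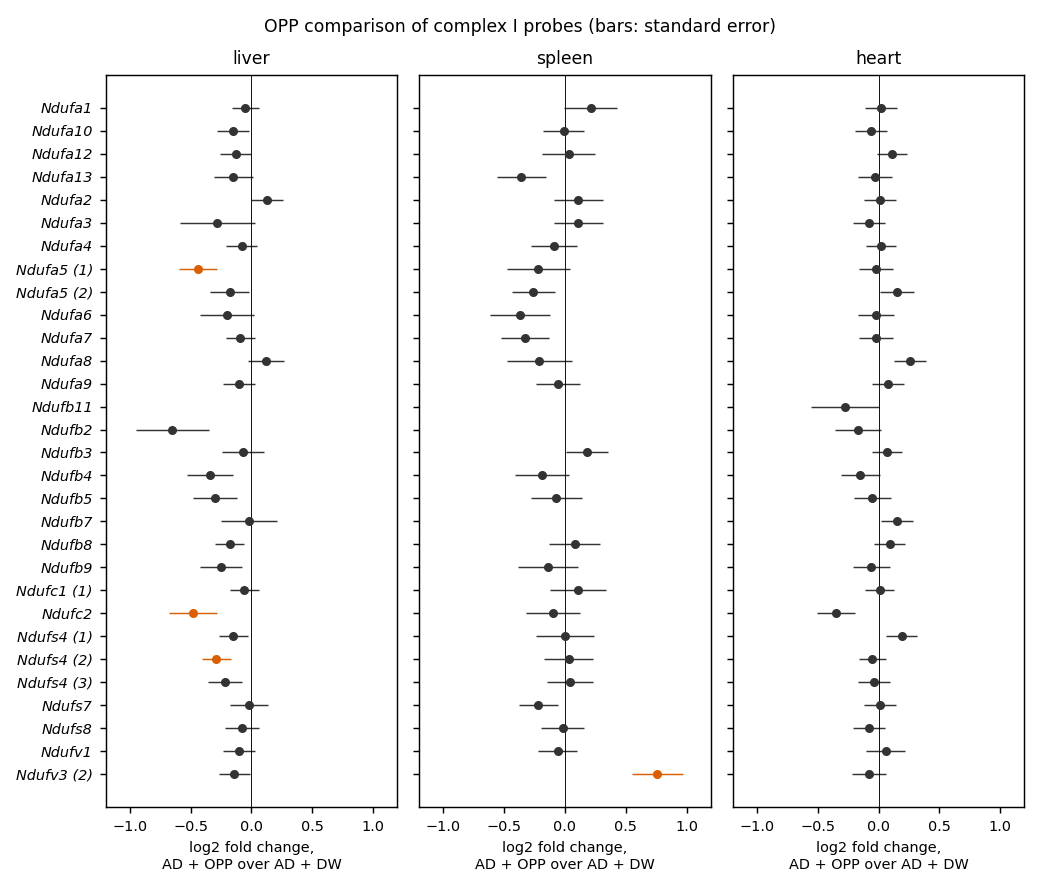
Log2 fold change of AD + OPP over AD + DW for each tested complex I probe in liver, spleen and heart (points, with bars of 1 standard error), in orange where the unadjusted limma p was under 0.05, where a number in brackets tells apart probes of the same gene. Points in the liver lie mostly left of 0, with *Ndufa5*, *Ndufc2* and *Ndufs4* in orange, and *Ndufv3* stands alone on the right in the spleen.

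In the spleen, 17 of 27 complex I probes were lower, where 58.2% of all probes were. The median over 24 genes was -0.06, beside -0.07 over all probes. With quantile normalization 12 of 24 genes were lower, beside 45.9% of all probes. The median turned on single arrays, from -0.175 without the first AD + DW spleen to 0.037 without the third, and from 10 to 20 of the 24 genes were lower with 1 array left out. The complex I level was -0.25, 0.07 and 0.17 in the AD + DW spleens and 0.08, -0.07 and -0.12 in the AD + OPP spleens, so the OPP spleens lay inside the range of the controls. The control spleen at 0.17 was the array with the fewest detected probes.

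*Ndufv3* had the smallest p of the complex I probes in the spleen. Its signal was 920.5, 1406 and 932 in AD + DW and 1949, 1639 and 1826 in AD + OPP spleens. Every OPP spleen was above every control, and the log2 fold change was 0.76 ± 0.21, or 1.69-fold (adjusted p = 0.139, limma). It was the only complex I probe of 27 with groups apart in the spleen, where 11.1% of all probes were apart toward higher signals and 12.3% toward lower. In the liver the same probe averaged 3167 ± 174 (SD, n = 4) and 2882 ± 306 (SD, n = 3), and in the heart 8305 ± 896 and 7860.4 ± 488 (SD, n = 3 each), with log2 fold changes of -0.14 and -0.08.

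A fit over the 19 arrays tested whether the response of *Ndufv3* differed between organs. Liver minus spleen was -0.90 ± 0.21 (adjusted p = 0.0651, limma) and spleen minus heart 0.83 ± 0.22 (adjusted p = 0.239), both short of the threshold, which 0.711% and 0.0196% of all probes passed. These comparisons share the spleen arrays. Without the second AD + DW spleen, the control with the highest *Ndufv3* signal, both passed (-1.10, adjusted p = 0.00447, and 1.03, adjusted p = 0.0145). Leaving out that spleen called 108 and 56 probes of the array in these contrasts. Over all alternatives the adjusted p ran from 0.00447 to 0.198 and from 0.0145 to 0.474. In a single fit whose spread was shared by all arrays, the OPP comparison of *Ndufv3* within the spleen passed the threshold (adjusted p = 0.0122), where the other alternatives gave 0.058 to 0.539. That fit called 254 of the 6664 probes tested in the spleen.

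Lymphocyte transcripts differed between the spleen groups. The mean log2 signal of 3 B cell genes was 8.80 to 9.33 in AD + DW and 7.44 to 8.19 in AD + OPP spleens, and that of 4 T cell genes 7.68 to 8.56 and 6.44 to 7.42. That of 3 macrophage genes was 9.51 to 10.24 and 8.87 to 9.42. That of 6 neutrophil granule genes was 12.29 to 13.69 and 13.92 to 14.32. These 4 lists did not overlap between the groups. *Cd5* was detected on no spleen array. The acute phase list (5.09 to 5.86 and 6.33 to 6.57) and the cardiomyocyte list (4.45 to 5.10 and 3.98 to 4.37) were also apart. Of their genes, 3 and 2 were detected on no spleen array. The erythroid, hepatocyte and brown fat lists overlapped. The part of these transcripts in the values of *Ndufv3* was not tested.

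The remaining probes with an annotated complex I symbol gave smaller values in the spleen. *Ndufa13*, a membrane arm accessory subunit also known as GRIM-19, gave -0.36 ± 0.20, *Ndufa7* -0.33 ± 0.20 and *Ndufa6* -0.37 ± 0.25, and toward higher signals *Ndufa1* gave 0.21 ± 0.22 and *Ndufb3* 0.18 ± 0.17, with *Ndufa3* at 0.11 ± 0.20. Of the catalytic subunits, *Ndufs7* gave -0.22 ± 0.16, *Ndufs8* -0.02 ± 0.18 and *Ndufv1* -0.06 ± 0.16. The dimmer probe of *Ndufs3*, named only by the study, read 85.5, 97.8 and 154 in AD + DW and 36.3, 71.1 and 84.2 in AD + OPP spleens, apart by a small margin at a low signal (-0.86 ± 0.37, adjusted p = 0.31, limma). Its brighter probe gave -0.11 ± 0.20. *Ndufa11*, also named only by the study, was apart toward higher signals. It read 182.5, 214.5 and 227.5 in AD + DW and 256.7, 244.8 and 306.6 in AD + OPP spleens.

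In the heart, 16 of 30 complex I probes were lower, beside 48.4% of all probes, and the median over 27 genes was -0.02, beside 0.01. With each array scaled to its median 19 of 27 genes were lower, beside 54.5% of all probes, in place of 14. With 1 array left out the median ran from -0.048 (without the first AD + DW heart) to 0.026 (without the third), and from 12 to 18 genes were lower. The complex I level was -0.09, 0.01 and 0.08 in the AD + DW hearts and -0.01, -0.06 and 0.02 in the AD + OPP hearts. The OPP hearts lay within the controls.

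*Ndufa8* read 2847, 2895 and 2693 in AD + DW and 3035, 3794 and 3331 in AD + OPP hearts. The groups were apart, with a wider spread under OPP, and the log2 fold change was 0.26 ± 0.13 (adjusted p = 0.999, limma). *Ndufc2* read 752, 1059 and 861 against 725, 737 and 620.5, and gave -0.35 ± 0.16 (adjusted p = 0.999). Its value was also below 0 in the liver and, at -0.10 ± 0.22, in the spleen. Groups were apart toward higher signals for 4 of the 30 probes (*Ndufa8*, the first *Ndufs4* probe, the brighter *Ndufa5* probe and *Ndufa12*) and toward lower for *Ndufc2*, where 4.16% and 3.54% of all probes were. The first *Ndufs4* probe gave 0.19 ± 0.13, while the other 2 probes gave -0.05 ± 0.11 and -0.04 ± 0.13. *Ndufb7* (0.15 ± 0.13), *Ndufb4* (-0.15 ± 0.16), *Ndufb2* (-0.17 ± 0.19) and *Ndufb11* (-0.28 ± 0.28) overlapped between the groups. The catalytic subunits gave 0.01 ± 0.13 (*Ndufs7*), -0.08 ± 0.13 (*Ndufs8*) and 0.06 ± 0.16 (*Ndufv1*).

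The OPP responses of liver and heart were then set against each other in the fit over all arrays. Of 29 probes tested in both organs, 28 had a lower value in the liver, against 54.3% of all probes, and the median over 26 genes was -0.15 beside -0.03. No probe of the array passed the threshold in this contrast, and 0 complex I probes did, while 106 higher (2.19%) and 86 lower (1.77%) probes of the array had an unadjusted limma p under 0.05, none of them of complex I. Between liver and spleen 16 of 24 genes had the lower value in the liver (median -0.13 beside 0.08), against 41.5% of all probes, and between spleen and heart 14 of 24 had the lower value in the spleen (median -0.03 beside -0.08), against 59.2%. With 1 array left out the median between liver and heart ran from -0.198 to -0.092 (without the first AD + DW liver), with 22 to 25 of 26 genes lower. Between liver and spleen it ran from -0.192 to 0.02, and without the first AD + DW spleen 12 of 24 genes were lower. Between spleen and heart it ran from -0.168 (without the first AD + DW spleen) to 0.077 (without the third), so that neither contrast with the spleen kept its direction. Each pair of these contrasts shares the arrays of an organ.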

How the data were processed

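RNA of whole livers, spleens and hearts was hybridised to Illumina MouseRef-8 arrays. The authors removed outlier arrays, and deposited the signal intensity of each probe before and after rank invariant normalization within each organ (the submitters' processing notes name BeadStudio, version 1.5.1.3), with a detection p-value for each. The deposited normalized intensity is background-subtracted, since each array's table equals a slope times the non-normalized intensity less a background of 124.3 to 187.7. The number of arrays limits the precision.

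For OPP, the normalized intensity was floored at 10, and probes detected (p under 0.01) on every array of either group of an organ were compared on the log2 scale with limma 3.58.1 in R 4.3.3, two-sided, with Benjamini-Hochberg adjustment over all of them and a threshold of 0.05. Organ responses were compared as interaction contrasts over the 19 arrays. Organs were compared on non-normalized intensity less each array's background, floored at 10, quantile normalized and log2 transformed, for probes detected on every array of at least 1 of 6 groups. The fixed design had taken that intensity as already background-subtracted, so the subtraction was added and the signals without it were kept as an alternative chosen after the data were seen. Where a gene had several probes, counts by gene used the brightest. A probe detected on no array of an organ was given as a bound, with each array of that organ set to the higher of its lowest detected signal and the probe's own. Scripts were tested on simulated data.

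The annotation named 1 gene for 19398 probes, several for 0 and none for 4650. Genes named in the text were the catalytic subunits, the 4 probes with the smallest p in each direction in an organ, the 3 with the largest and the 3 with the smallest difference of each organ contrast, genes whose probes disagree, members not detected in an organ, and those in the study's OPP tables. Some of the results are not reported here. The members, lists and rules were chosen with earlier results of these data known. The labels do not say whether replicates are separate mice or whether organs share a mouse, so p-values measure the spread between arrays. Alternatives were another scaling (median, quantile or neqc), a floor of 1, no detection filter, the methods' t-test, a trended and robust variance, a fit over all arrays, the replicate number as a block and leaving out each array.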

Additional observations from a re-analysis of the deposited data

How the results depend on the processing

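The count of complex I probes called, in either direction, between heart and spleen was 30 under every alternative run. That between heart and liver was 30 except with no detection filter, which called 31. Without the filter the dimmer *Ndufv3* probe is also tested, whose mean was 44.5 in the heart and 69.3 in the liver. Between liver and spleen the count ran from 22 (AD + OPP arrays only) to 30. In the liver, spleen and heart, 0 complex I probes were called for OPP under every alternative except that the single fit over all arrays called 1 in the spleen (*Ndufv3*). That fit called 254 probes of the array in the spleen in place of 0, a trended and robust variance 222, and no detection filter 5 in the spleen and 3 in the heart. For the responses compared between organs, median scaling called 7 probes between spleen and heart in place of 1.

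Scaling moved the size of the organ differences. The median over complex I genes between heart and liver was 1.892, and 1.551 with median scaling and 1.261 with the deposited normalized table. Between heart and spleen it was 2.427, and 2.565 with median scaling and 2.224 without background subtraction, an alternative chosen after seeing the data. Between liver and spleen it was 0.765, and 1.102 with median scaling, 1.368 with the deposited table, 0.58 over AD + OPP arrays only and 0.505 without background subtraction. The order of liver and spleen turned for *Ndufb8* (0.50 with median scaling and 0.76 with the deposited table) and for *Ndufa3* (0.33 and 0.59, also 0.12 over AD + DW arrays only, 0.03 with the block of replicate numbers and between -0.22 and 0.04 with 1 array left out). The causes were not tested.

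With 1 array left out, the probes called ranged from 0 to 168 for OPP in the spleen, from 5 to 108 for liver minus spleen, from 0 to 56 for spleen minus heart and from 0 to 1 for liver minus heart, the highest of the first 3 without the second AD + DW spleen. The complex I probes called ranged from 0 to 1 for liver minus spleen and for spleen minus heart.

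Deviations of arrays with the same replicate number in both groups of an organ correlated between -0.397 and 0.189. Arrays of different numbers were not compared in this way, so these values cannot decide whether the numbers pair the arrays. With the replicate number as a block, the probes called for liver minus spleen were 11 in place of 33, and the median over complex I genes in the liver was -0.181. It changed no call of a complex I probe.

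*Ndufb7* and *Ndufb11* were detected on 0 of 6 spleen arrays and *Ndufb2* on 3, so their signal over background limits what can be said of their size there.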
